A study of Homo sapiens with 6 samples.

Results

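The genes described here encode Golgi glycosyltransferases, which build the sugar chains of glycoproteins, glycolipids and proteoglycans, and carbohydrate sulfotransferases, which add sulfate to those chains. They are the protein-coding rows of the deposited table whose symbol starts with B3GALT, B4GALT, B3GNT, CHST, ST3GAL, ST6GAL, GALNT, MGAT or FUT followed by a digit. This rule gave 71 genes of 29538 in the table, of which 16651 are protein-coding. The set was chosen by its names together with the values of B4GALT1 and CHST14, which were nearly 2-fold higher after the knockdown, so the values of these 2 genes are given as a description with no test. The study measured mRNA in MDA-MB-231, a human triple-negative breast cancer cell line, in 3 libraries from cells given a negative-control siRNA (siNC) and 3 from cells given SI-BYSL-Homo-838, an siRNA against BYSL (siBYSL). BYSL encodes bystin, a protein needed for maturation of the small ribosomal subunit. The labels name no genetic edit in either group. Both groups received 160 pmol of siRNA per well with Lipofectamine RNAiMAX, had fresh medium after 6 h and were harvested at 48 h. The libraries are labelled as independent biological replicates. One siRNA was used against BYSL, so effects of lower BYSL and effects of this siRNA on other transcripts cannot be told apart.

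In the Golgi, N-glycans that arrive from the endoplasmic reticulum are trimmed, and MGAT enzymes then start branches of N-acetylglucosamine that B4GALT enzymes extend with galactose and ST3GAL or ST6GAL enzymes cap with sialic acid. GALNT enzymes start a separate class, the mucin-type O-glycans, by attaching N-acetylgalactosamine to serine or threonine. CHST11, CHST12, CHST14, CHST3, CHST7 and CHST15 place sulfate on chondroitin and dermatan sulfate, the chains of proteoglycans in the matrix and at the cell surface. Breast cancer cells are known for altered branching, sialylation and chondroitin sulfation, which lectins and adhesion receptors read.

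Libraries held 27754883 to 32088817 counts. BYSL was at 104, 94.5 and 101 CPM in the siNC libraries and at 15.9, 15.7 and 17.4 CPM in the siBYSL libraries, or 16.36% of the siNC mean. CPM here is a gene's count divided by the library's TMM-scaled total and given per 1e6 counts. The markers VIM, CD44, EGFR, KRT8 and KRT18 of this line were between 202 and 2404 CPM in siNC, while mean levels of ESR1 and PGR were at most 0.28 CPM in either group. Of these markers of the line, VIM and EGFR were called lower (log2 fold changes -0.21 and -0.23). CD44 was called higher (0.19), a call lost without siBYSL 2 or any 1 siNC library, and KRT8 and KRT18 were not called. ERBB2, listed as low in this line, went from 51.3 to 61.9 CPM, and CDH1, the epithelial cadherin, from 4.48 to 9.18 CPM, and both were called higher. Of the markers of other cell types, PTPRC and ALB were under 0.17 CPM, and PECAM1 (5.32 to 6.48 CPM) and COL1A1 (6.87 to 7.56 CPM) did not pass the test. The part of these marker differences in the results below was not tested. One knockdown library, siBYSL 3, was unlike its replicates: its chi-square per degree of freedom over genes was 20.1 and 12.31 against siBYSL 1 and 2, and theirs against one another was 3.212. Among the members that could be tested, siBYSL 1 was the highest siBYSL library for 36 and siBYSL 3 the lowest for 33, so counts are also given without siBYSL 3.

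After BYSL knockdown members of the set moved in both directions. ST6GAL1, ST3GAL5, GALNT5 and GALNT2 rose, MGAT1, MGAT2, CHST11 and B3GALT5 fell, and B4GALT1 and CHST14, which the rule used, were higher. Of the 71 members, 62 passed the filter on low counts, and 20 of these were higher, 10 lower and 32 not called at an adjusted p under 0.05 (edgeR quasi-likelihood test, adjusted over all 16412 genes tested). The same fit called 36.9% of all genes tested in either direction, and among protein-coding genes 19.7% higher and 20.9% lower. Since the rule used this contrast, nothing is read from the members' counts. Counts of role groups and related lists below stand beside these same shares. By size, 7 members were called and higher by 1.5-fold or more (6.27% of protein-coding genes) and 4 were called and lower by as much (3.5% of protein-coding genes). All siBYSL libraries lay above all siNC libraries for 22 members (25.5% of protein-coding genes) and below them for 16 (27.5% of protein-coding genes). These counts include B4GALT1 and CHST14, which the rule used. Without them, 18 of 60 were called higher, 5 of these by 1.5-fold or more, and 20 had all siBYSL libraries above all siNC libraries. The median log2 fold change over the 62 was 0.15, beside 0.0066 over all genes tested, and it was 0.13 over the 60 without B4GALT1 and CHST14. Over the 62 it was 0.076 without siBYSL 1, and 0.22 with library totals as the only scaling, where the median of all genes was 0.085. Without siBYSL 3, 24 members were higher and 11 lower. The share of all genes called in that fit is not given here. Nothing is therefore read from this count. The same holds for later counts with a library left out or under another scaling, filter or test, where that share is not given either. RNA came from bulk cultures, so a change in the share of cells expressing a gene and a change in RNA per cell cannot be told apart.

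**Figure D1:**
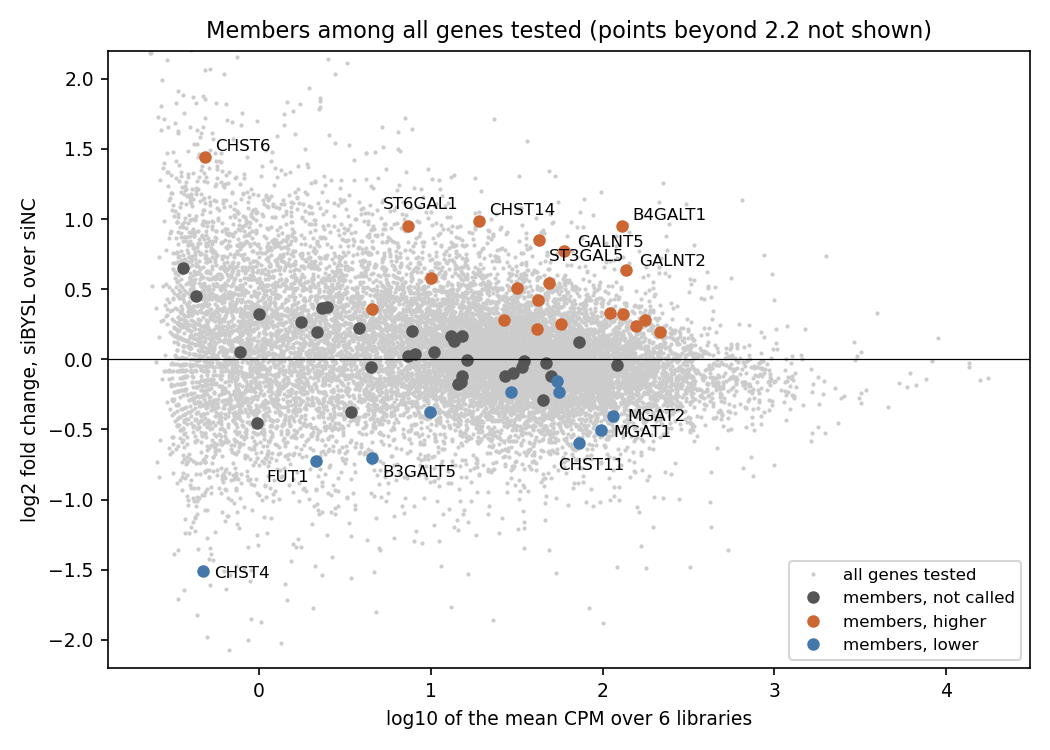
Log2 fold change (siBYSL over siNC, vertical axis) against the log10 of the mean CPM over 6 libraries (horizontal axis) for all genes tested (grey) and the 62 members tested (orange called higher, blue called lower, dark grey not called). B4GALT1, CHST14, ST6GAL1 and ST3GAL5 lie at 0.85 to 0.98, while CHST11, MGAT1 and MGAT2 lie at -0.60 to -0.41 among the more abundant genes.

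The 9 members under the filter were MGAT3, GALNT4, GALNT8, GALNT9, GALNT15, GALNT16, B3GNT6, CHST1 and CHST5, with at most 12 counts (0.428 CPM) in any library. MGAT3, which adds the bisecting N-acetylglucosamine of N-glycans, had 0 counts in all siNC libraries. A further 7 members were tested but averaged under 1 CPM. The sulfotransferases CHST4 and CHST6 were called among these. CHST4, which sulfates N-acetylglucosamine on selectin ligands, had 22, 19 and 19 counts in siNC and 8, 7 and 7 in siBYSL. CHST6, the corneal keratan sulfate sulfotransferase, had 11, 4 and 7 counts in siNC and 15, 22 and 27 in siBYSL. Both call sizes rest on few reads, and the CHST6 call was lost without siNC 2 (adjusted p = 0.0627, edgeR) or siNC 3 (0.0597).

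B4GALT1, the main galactosyltransferase of N-glycan branches and a subunit of lactose synthase (ENSG00000086062, chr9:33104082-33167356, GRCh38), was at 87.6, 90.7 and 86.8 CPM in siNC and at 179, 179 and 153 CPM in siBYSL. Every siBYSL library lay far above every siNC library, and siBYSL 3 was the lowest of them. The fitted log2 fold change was 0.95 (SE 0.066), and 1.02 without siBYSL 3. CHST14, which puts sulfate on the 4-position of N-acetylgalactosamine in dermatan sulfate (ENSG00000169105, chr15:40470998-40474571), was at 12.4, 12.7 and 13.1 CPM in siNC and at 23.8, 24.6 and 27.2 CPM in siBYSL. Here siBYSL 3 was the highest, so the 2 genes that led to the set did not share their order among the knockdown libraries. The log2 fold change of CHST14 was 0.98 (SE 0.076), and 0.93 without siBYSL 3. B4GALT1 is overlapped on the other strand by B4GALT1-AS1, which had 18, 27 and 21 counts in siNC and 15, 17 and 18 in siBYSL and was not called. The libraries were strand-specific, but the sources used here do not state the strand setting of the counting. The antisense counts were small beside those of B4GALT1.

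Apart from B4GALT1, 6 of the 7 beta-1,4-galactosyltransferases had log2 fold changes of at most 0.25 in size. B4GALT2, which acts on N-glycans too, rose by a log2 fold change of 0.25 (SE 0.052), from 52.4 to 62.4 CPM on average. B4GALT3, a further N-glycan galactosyltransferase, fell by 0.23 on the log2 scale (SE 0.062), and this call was lost without siNC 1 (adjusted p = 0.0657, edgeR), without siNC 3 (0.0636) and with library totals as the only scaling (0.075). B4GALT5, a lactosylceramide synthase with the highest mean CPM of the family over all 6 libraries though just below B4GALT1 in siBYSL, was called higher at 0.24 (SE 0.077), yet its groups overlapped, with 138, 147 and 145 CPM in siNC and 185, 174 and 147 CPM in siBYSL. The B4GALT5 call was lost on leaving out any library but siBYSL 3, with adjusted p from 0.0699 to 0.128 (edgeR). B4GALT4, B4GALT6 and B4GALT7, the last of which builds the linker of glycosaminoglycans, were not called, at log2 fold changes of -0.18, 0.13 and -0.01.

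Levels of different genes were compared as CPM per kilobase of annotated exon. On this scale B4GALT5 was the highest of the family in siNC at 30.3 ± 1.06 (SD, n = 3), ahead of B4GALT1 at 18.0 ± 0.419, B4GALT3 at 15.4 and B4GALT2 at 13.9. In siBYSL, B4GALT1 reached 34.8 ± 3.07 and B4GALT5 35.7 ± 4.14, a gap smaller than their spread. With the longest coding transcript as the length, B4GALT1 ranked above B4GALT5 in siBYSL (40.6 against 35.7) and below B4GALT3 in siNC (21.0 against 24.9), so these neighbours have no settled order. The share of B4GALT1 in the summed level of the 7 genes went from 21.1% ± 0.363 to 32.2% ± 0.843 (SD, n = 3), and that of B4GALT3 from 18.1% to 12.2%. The summed level of the family went from 85.6 to 108 and was 1.26 times as high in siBYSL. This sum includes B4GALT1, which the rule used and which itself went from 18.0 to 34.8. No sum without it is given here, so nothing is read from the sum about the rest of the family.

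**Figure D2:**
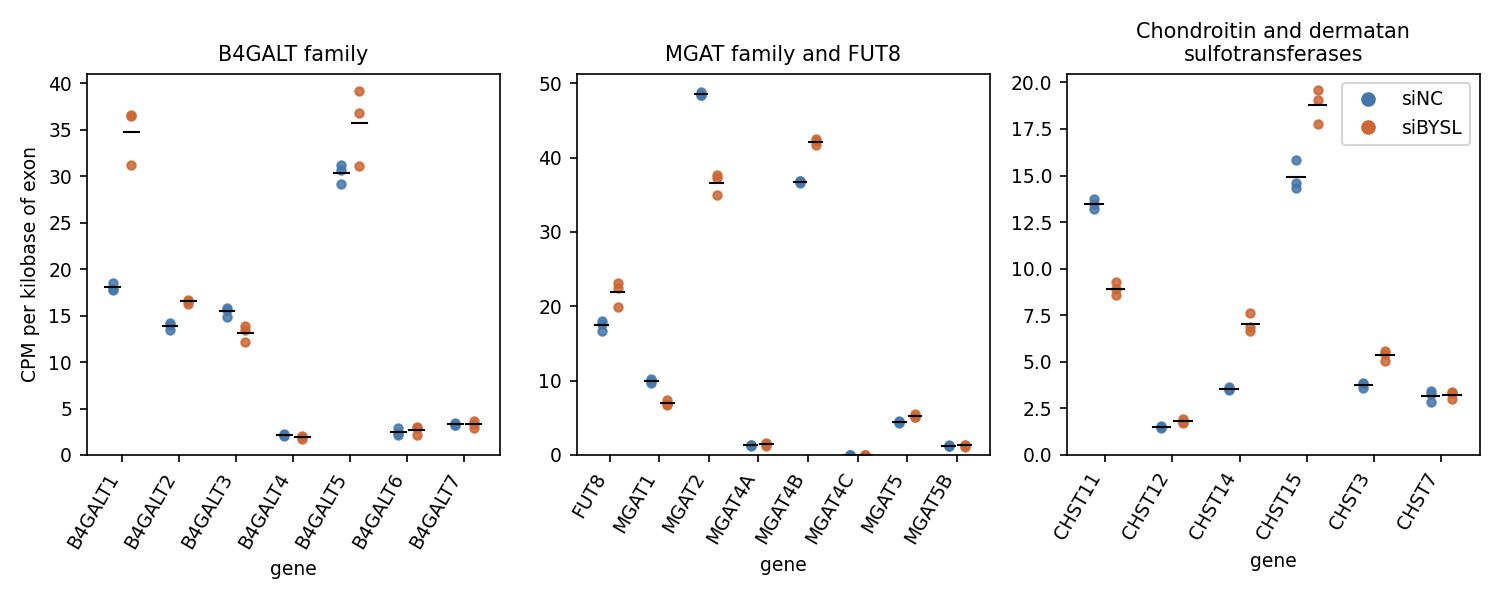
Levels in CPM per kilobase of exon (vertical axis, from 0) of B4GALT genes, of MGAT genes with FUT8, and of chondroitin and dermatan sulfotransferases, with 1 point per library and a bar at the group mean (blue siNC, orange siBYSL). B4GALT1 nears B4GALT5 in siBYSL, MGAT2 and MGAT4B change places, and CHST11 lies further below CHST15 in siBYSL.

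Of the branching enzymes, the 2 that start the first antennae were lower, and MGAT4B and MGAT5, which add later branches, were slightly higher. MGAT1, which starts the first antenna and so opens the route to hybrid and complex N-glycans (ENSG00000131446, chr5:180784782-180815652), was at 118, 112 and 116 CPM in siNC and at 79.8, 77.2 and 86.1 CPM in siBYSL. It fell by 0.51 on the log2 scale (SE 0.056, adjusted p = 6.57e-05, edgeR), with no overlap between the groups. MGAT2, which starts the second antenna, fell by 0.41 (SE 0.05), from 131 ± 0.658 to 98.5 ± 4.02 CPM (SD, n = 3). MGAT4B, which adds a further branch and had the highest mean CPM of the group, rose by 0.20 (SE 0.046), from 202 ± 0.629 to 232 ± 1.98 CPM. FUT8, the only enzyme of core fucosylation, rose by 0.33 (SE 0.064), from 117 to 146 CPM. MGAT5, which makes the beta-1,6 branch bound by galectins, was called at 0.22 (SE 0.061), a call lost without siNC 1 (adjusted p = 0.0566, edgeR) or siNC 3 (0.0861). In all, 3 of the 8 tested genes of this group rose and 2 fell, beside 19.7% and 20.9% of protein-coding genes. MGAT4A, MGAT4C and MGAT5B were not called.

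Per kilobase of exon, MGAT2 was first of all members in siNC at 48.6 and MGAT4B the second at 36.7, and in siBYSL their order was turned, at 36.6 and 42.1. This exchange depends on the length used, since with the longest coding transcript MGAT4B was first in both groups (66.7 and 76.5 against 48.6 and 36.6 for MGAT2). The summed level of the 8 MGAT genes in siBYSL was 0.916 of that in siNC. MGAT4B overlaps SQSTM1 on the other strand and FUT8 overlaps FUT8-AS1, which went from 27, 21 and 21 counts to 37, 67 and 52 (called higher, adjusted p = 0.00492, edgeR). The FUT8-AS1 counts were small beside FUT8 itself, and the level of SQSTM1 is not given here. Other called members overlap protein-coding genes too. B4GALT3, ST3GAL4, ST3GAL6 and CHST4 do so on the other strand, and GALNT10 and FUT10 on the same strand. The part of these overlaps in the counts was not tested.

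Among the enzymes that start O-GalNAc glycans, 5 of 12 tested rose and 0 fell in edgeR and in DESeq2. In edgeR, 19.7% of protein-coding genes were called higher and 20.9% lower. Of the 12, 1 was lower at an unadjusted p under 0.05 in edgeR and 1, GALNT3, was called lower without the filter. The 7 that were not called lay between -0.29 (GALNT3) and 0.26 (GALNT14) on the log2 scale. GALNT5 (ENSG00000136542, chr2:157257598-157314211) was at 43.8, 45.5 and 43.5 CPM in siNC and at 79.2, 79.2 and 67.6 CPM in siBYSL, a log2 fold change of 0.77 (SE 0.07, adjusted p = 1.91e-05, edgeR). GALNT2, a broadly expressed initiating enzyme (ENSG00000143641, chr1:230057990-230282124), was at 105, 111 and 107 CPM in siNC and at 177, 172 and 152 CPM in siBYSL, a log2 fold change of 0.64 (SE 0.063, adjusted p = 3.46e-05). In both genes siBYSL 3 was the lowest knockdown library and still lay above all controls.

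GALNT12 was at 7.55, 8.67 and 7.98 CPM in siNC and at 12.8, 11.2 and 12.2 CPM in siBYSL, a rise of 0.58 (SE 0.093). GALNT11, which is known to glycosylate Notch and LDL-receptor family proteins, was at 38.1, 41.0 and 39.9 CPM in siNC and at 64.4, 58.9 and 50.2 CPM in siBYSL, a rise of 0.54 (SE 0.084). The siBYSL libraries of GALNT11 were spread more widely than those of GALNT12, without reaching the controls. GALNT10, the most abundant of the group by CPM, rose by 0.28 (SE 0.05), from 159.6 ± 0.57 to 194 ± 8.06 CPM (SD, n = 3). GALNT1 was not called, with means of 123 and 119.9 CPM. Per kilobase of exon GALNT1 was the highest of the family in both groups, but with the longest coding transcript as the length it was behind GALNT2 and GALNT10 in siBYSL. GALNT3 was at 45.1, 51.6 and 51.0 CPM in siNC and at 49.6, 40.3 and 30.7 CPM in siBYSL, and its groups overlapped. GALNT3 was not called with all libraries (adjusted p = 0.115, edgeR), and passed as lower without siBYSL 1 (-0.47, adjusted p = 0.00467) and, with all libraries, without the filter on low counts (-0.31, adjusted p = 0.00611). Leaving out siBYSL 3, its lowest library, gave -0.14 and no call (adjusted p = 0.187, edgeR). Without siBYSL 3, GALNT7 (0.23) and GALNT13 (0.40) passed as higher. The summed level per kilobase of the 17 GALNT genes was 1.17 times as high in siBYSL, and the share of GALNT2 went from 14.2% to 18.9%.

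Other enzymes extend chains through beta-1,3 linkages. Of 7 tested beta-1,3-N-acetylglucosaminyltransferases, which build poly-N-acetyllactosamine and related chains, B3GNT8 alone was called, at 0.36 (SE 0.124). That call was lost without siNC 1, 2 or 3 or siBYSL 2 or 3 (adjusted p from 0.0645 to 0.123, edgeR), without the filter (0.0604) and with the DESeq2 Wald test (0.0846). B3GNT5, which makes the lacto-series glycolipid precursor and was the most abundant of them by CPM, was at 48.1, 47.0 and 46.3 CPM in siNC and at 50.8, 48.7 and 39.4 CPM in siBYSL. The 5 beta-1,3-galactosyltransferases held 1 lower gene and 0 higher ones, by edgeR's adjusted and unadjusted p and by DESeq2. B3GALT5, which makes type 1 chains, was at 5.73, 6.14 and 4.99 CPM in siNC and at 3.33, 3.15 and 3.89 CPM in siBYSL, and it fell by 0.70 on the log2 scale (SE 0.132, adjusted p = 0.00188, edgeR). B3GALT6, a glycosaminoglycan linker enzyme and the most abundant by CPM, was not called at -0.09 with all libraries. Without siBYSL 3, B3GALT6 passed as lower (-0.19) and B3GALT9 as higher (0.48).

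**Figure D3:**
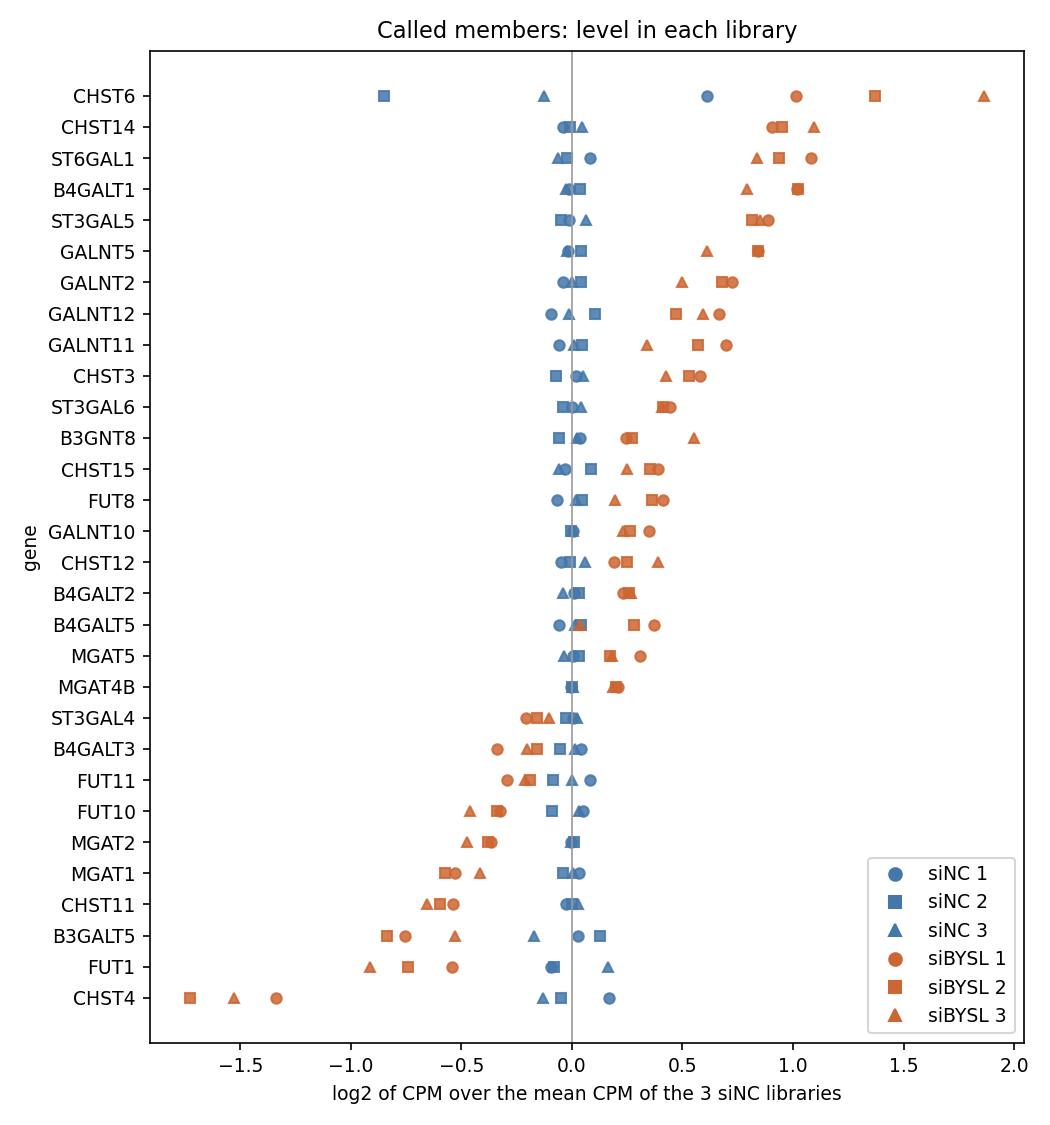
Log2 of each library's CPM over the mean of the 3 siNC libraries (horizontal axis) for the 30 called members (vertical axis, ordered by fitted fold change), with blue for siNC and orange for siBYSL and a marker shape for each replicate number. The groups are apart for all genes but B4GALT5, where siBYSL 3 lies among the controls, and CHST6 and CHST4 rest on fewer than 30 counts a library.

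Of 7 tested sialyltransferases, 3 rose and 1 fell, beside 19.7% and 20.9% of protein-coding genes. ST6GAL1, which caps N-glycans with alpha-2,6-linked sialic acid (ENSG00000073849, chr3:186930485-187078553), was at 5.30, 4.92 and 4.78 CPM in siNC and at 10.6, 9.56 and 8.92 CPM in siBYSL. Its log2 fold change was 0.95 (SE 0.103, adjusted p = 5.76e-05, edgeR), close in size to that of B4GALT1, whose product it uses. ST3GAL5, the GM3 synthase that starts the gangliosides (ENSG00000115525, chr2:85837120-85905199), was at 30.0, 29.2 and 31.6 CPM in siNC and at 55.9, 53.2 and 54.5 CPM in siBYSL. The 3 siBYSL libraries agreed closely, and the log2 fold change was 0.85 (SE 0.058, adjusted p = 3.46e-06). ST3GAL6 rose by 0.42 (SE 0.055), from 35.8 to 47.9 CPM. ST3GAL4, with the highest mean CPM of the group over all 6 libraries though below ST3GAL5 in siBYSL, was called lower at -0.15 (SE 0.054), from 57.1 to 51.3 CPM, and that call was lost under every library left out but siBYSL 3 (adjusted p from 0.0949 to 0.16, edgeR), with library totals (0.305), upper-quartile factors (0.142), either other filter (0.0629 and 0.0529) and the DESeq2 Wald test (0.0817). ST3GAL1, ST3GAL2 and ST3GAL3 were not called, at -0.01, -0.12 and 0.36. Per kilobase of exon, ST6GAL1 was the 51st of 71 members in siNC at 0.546 and reached 1.06 in siBYSL, well under ST3GAL4 at 11.5.

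Sulfotransferases of chondroitin and dermatan sulfate shifted against each other. Of 6 tested, 4 were higher and CHST11 alone was lower, beside 19.7% and 20.9% of protein-coding genes. The 4 include CHST14, which the rule used. CHST11, a chondroitin 4-O-sulfotransferase (ENSG00000171310, chr12:104455295-104762014), was at 85.9, 87.6 and 89.2 CPM in siNC and at 60.2, 58.0 and 55.6 CPM in siBYSL, and it fell by 0.60 on the log2 scale (SE 0.053, adjusted p = 1.7e-05, edgeR). CHST3, a chondroitin 6-O-sulfotransferase, was at 26.5, 24.9 and 27.1 CPM in siNC and at 39.1, 37.8 and 35.1 CPM in siBYSL, and it rose by 0.51 (SE 0.066, adjusted p = 0.000178). The groups were apart for both genes, in opposite directions. CHST15, which adds a second sulfate to 4-sulfated units and was the most abundant by CPM, rose by 0.33 (SE 0.059), from 97.8 to 123 CPM. CHST12, a further 4-O-sulfotransferase, rose by 0.28 (SE 0.071), a call lost without siNC 1 (adjusted p = 0.0561, edgeR). CHST7, a 6-O-sulfotransferase, was not called at 0.02.

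Per kilobase of exon, the share of CHST11 in the summed level of these 6 genes went from 33.4% ± 0.844 to 19.8% ± 0.446 (SD, n = 3), and that of CHST14 from 8.82% ± 0.322 to 15.6% ± 1.37. CHST15 went from 36.9% to 41.6% and CHST3 from 9.3% to 11.9%. CHST14 and CHST3 were within their spread of one another in siNC (3.56 ± 0.107 and 3.76 ± 0.161) and apart in siBYSL (7.05 ± 0.486 and 5.36 ± 0.287). The summed level went from 40.4 to 45.1 and was 1.12 times as high in siBYSL. This sum and the shares include CHST14, which the rule used and which itself went from 3.56 to 7.05. No sum without CHST14 is given here, so nothing is read from the sum about the other genes. The remaining sulfotransferases, which act on keratan sulfate, selectin ligands or the HNK-1 epitope, held no call above 1 CPM, and CHST2, with the highest mean CPM over all 6 libraries though below CHST10 in siNC, had means of 14.3 and 16.1 CPM and was not called (adjusted p = 0.0818, edgeR).

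Of the 5 tested fucosyltransferases other than FUT8, 3 fell and 0 rose in edgeR and in DESeq2. In edgeR, 20.9% of protein-coding genes were called lower and 19.7% higher. Of the 5, 1 was higher at an unadjusted p under 0.05 in edgeR. FUT1, which makes the H antigen, was at 2.50, 2.53 and 3.00 CPM in siNC and at 1.84, 1.60 and 1.42 CPM in siBYSL, and it fell by 0.72 on the log2 scale (SE 0.166, adjusted p = 0.00604, edgeR). FUT10 fell by 0.37 (SE 0.087), from 11.2 to 8.63 CPM. FUT11, the most abundant of them by CPM, was called at -0.23 (SE 0.067), a call lost without siBYSL 1 (adjusted p = 0.0549, edgeR), siNC 1 (0.0971) or siNC 3 (0.0688) and with library totals as the only scaling (0.0947). FUT4, which makes Lewis x structures, was not called at 0.20, and FUT2 was not called at 0.05.

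The 4 members with the largest log2 fold changes among those above 1 CPM were CHST14, ST6GAL1, B4GALT1 and ST3GAL5, and their promoter windows are shown because they moved by similar amounts. Each runs from 250 bases before to 50 after the start RefSeq gives, from RefSeq (GRCh38.p14), as the first window listed for the gene, and 50 of the 62 tested members have one. The window of ST3GAL5 belongs to a transcript start inside the gene as GENCODE 29 annotates it, not to its outermost start. Capitals mark matches on either strand to a GC box, spelled GGGCGG, to a CCAAT box, which its name spells, or to a cAMP response element, spelled TGACGTCA. Also searched, and in none of these 4 windows, were the E-box (CACGTG), the Golgi stress element known as GASE (ACGTGGC) and the TATA box (TATAAA).
CHST14 (chr15:40470734-40471033, plus strand): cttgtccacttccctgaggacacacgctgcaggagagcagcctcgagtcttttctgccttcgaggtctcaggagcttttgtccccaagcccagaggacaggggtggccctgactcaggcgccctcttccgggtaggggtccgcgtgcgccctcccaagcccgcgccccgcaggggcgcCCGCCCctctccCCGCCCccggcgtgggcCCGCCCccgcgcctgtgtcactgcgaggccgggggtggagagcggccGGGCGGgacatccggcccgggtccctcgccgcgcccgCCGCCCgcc
ST6GAL1 (chr3:186930276-186930575, plus strand): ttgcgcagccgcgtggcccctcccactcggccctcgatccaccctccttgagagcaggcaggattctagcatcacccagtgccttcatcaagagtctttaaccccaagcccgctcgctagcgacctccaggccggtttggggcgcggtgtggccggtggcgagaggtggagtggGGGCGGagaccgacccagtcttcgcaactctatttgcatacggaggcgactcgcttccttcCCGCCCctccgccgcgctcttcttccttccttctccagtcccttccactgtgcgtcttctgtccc
B4GALT1 (chr9:33167287-33167586, minus strand): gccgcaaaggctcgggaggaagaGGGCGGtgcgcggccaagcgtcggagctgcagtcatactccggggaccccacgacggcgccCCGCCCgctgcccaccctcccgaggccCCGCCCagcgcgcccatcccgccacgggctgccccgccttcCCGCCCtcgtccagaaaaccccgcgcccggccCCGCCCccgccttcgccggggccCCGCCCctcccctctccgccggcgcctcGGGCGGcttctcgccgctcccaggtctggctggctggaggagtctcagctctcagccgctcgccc
ST3GAL5 (chr2:85888941-85889240, minus strand): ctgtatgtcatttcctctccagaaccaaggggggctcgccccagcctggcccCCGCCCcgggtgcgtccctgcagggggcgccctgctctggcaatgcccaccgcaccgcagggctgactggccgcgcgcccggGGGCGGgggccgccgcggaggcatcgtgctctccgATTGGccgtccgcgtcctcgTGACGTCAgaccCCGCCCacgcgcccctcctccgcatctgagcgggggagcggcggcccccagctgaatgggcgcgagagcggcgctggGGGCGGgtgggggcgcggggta
The B4GALT1 window held 7 GC box matches, CHST14 held 5, ST3GAL5 held 4 and ST6GAL1 held 2, and ST3GAL5 also held 1 CCAAT box and 1 cAMP response element. A GC box was in 34 of the 50 members' windows (68.0%), beside 70.1% of tested protein-coding genes and 44.6% of all 27305 windows. The CCAAT box was in 34.0% of the members' windows, beside 36.7% of tested protein-coding genes and 35.7% of all windows. The Golgi stress element was in 3 of the 50 (6.0%, beside 4.37% and 3.3%), the E-box in 6.0% (beside 10.0% and 7.43%), the cAMP response element in 2.0% (beside 3.2% and 1.98%) and the TATA box in 0 (beside 5.63% and 12.0%). These motif shares are descriptions of letters in the windows.

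The siRNA strands are shown because a short siRNA can also pair with other transcripts through its seed, bases 2 to 8, given in capitals.
Antisense (guide) strand: uAUUCAGCaacgucaucuctt
Sense strand: gAGAUGACguugcugaauatt
The heptamer GCTGAAT pairs with the guide's seed. It was in the longest annotated 3′ UTR of 14 of 62 tested members (22.6%), beside 11.9% of the 13072 tested genes with such a UTR. The members' 3′ UTRs were longer, with a median of 2200 bases beside 1356 over those genes. By call, 1 of 20 higher members held it, 3 of 10 lower members and 10 of 32 that were not called. Over all genes it was in 9.03% of those called higher, 19.1% of those called lower and 10.2% of those not called. The heptamer GTCATCT, which pairs with the seed of the sense strand, was in 12 of 62 tested members (19.4%), beside 12.1% of all those genes, with 4 of 20 higher, 2 of 10 lower and 6 of 32 members that were not called. Over all genes it was in 12.4% of those called higher, 14.3% of those called lower and 11.3% of those not called. The part of seed pairing in the members' values was not tested.

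The lower members with the heptamer were MGAT1, CHST11 and B3GALT5, and CHST15 was the higher one. Their sites are shown with up to 11 bases on each side and the heptamer in capitals, in the transcript's direction (GENCODE 29, GRCh38, with the position of the heptamer).
MGAT1 3′ UTR (chr5:180790554-180790560, minus strand): ctaaaataaagGCTGAATtgtctgaaaaa
MGAT1 3′ UTR (chr5:180786491-180786497, minus strand): gtatttctgaaGCTGAATcaaattaagat
CHST11 3′ UTR (chr12:104761898-104761904, plus strand): tgttaaagaaaGCTGAATtccacattgcc
B3GALT5 3′ UTR (chr21:39668044-39668050, plus strand): actgggtgcagGCTGAATgcatgggctgc
B3GALT5 3′ UTR (chr21:39669566-39669572, plus strand): atcccttgacaGCTGAATaaagaagcgtt
CHST15 3′ UTR (chr10:124010140-124010146, minus strand): gaGCTGAATtgttgctgcac
The second B3GALT5 site is followed by an A, the base that favours seed pairing in microRNA targets. The other lower members, MGAT2, B4GALT3, FUT1, FUT10, FUT11, ST3GAL4 and CHST4, had no match in the UTR searched. B4GALT1 and CHST14 had none either.

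Related genes of the pathway were described from 9 lists with 143 symbols, of which 112 were tested, 27 were higher and 28 lower, beside the 19.7% and 20.9% of protein-coding genes called higher and lower. With library totals as the only scaling, the split was 35 higher and 22 lower. In that fit the median log2 fold change of all genes was 0.085, and the share of all genes called is not given here. Nothing is read from that split. In glycosaminoglycan assembly, 3 of 13 tested genes rose and 2 fell, and without siBYSL 3 there were 6 higher. CHPF, the chondroitin polymerizing factor, was at 33.9, 36.2 and 35.1 CPM in the controls and at 13.5, 14.8 and 16.2 CPM after knockdown, a log2 fold change of -1.24 (SE 0.077, adjusted p = 1.8e-06, edgeR). B3GAT3, which completes the linker, fell by 0.49, while UST, the uronyl 2-O-sulfotransferase, rose by 0.71 and PXYLP1, the xylose phosphatase of the linker, by 0.65. In heparan sulfate synthesis, 4 of 12 rose and 1 fell. EXTL3, which starts heparan chains, rose by 0.93 (SE 0.074), HS3ST3B1 by 0.65, HS6ST1 by 0.48 and HS2ST1 by 0.45. Among proteoglycan core proteins, 7 of 14 rose and 3 fell. SDC1 rose by 0.77 (SE 0.054) and GPC1 by 0.53, while SRGN fell by 0.53 and CD74, the invariant chain that can carry chondroitin sulfate, by 0.58.

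Among genes of nucleotide sugar and PAPS synthesis, 1 of 22 was called higher and 6 lower, and the list's median was -0.13 on the log2 scale. These counts were 4 and 3 when library totals were the only scaling, with the lower calls of GFPT2 (adjusted p = 0.05), NANP (0.0567) and PGM3 (0.304) lost. Without siBYSL 3 they were 4 and 9. PGM3 also lost its call without siBYSL 2 or siNC 1, 2 or 3 (adjusted p from 0.0808 to 0.177, edgeR). UAP1 and GNPNAT1, both in the route to UDP-N-acetylglucosamine, fell by 0.57 and 0.55. FPGT, of the fucose salvage route, rose by 0.81 (SE 0.076). Among Golgi transporters of these donors, 3 of 13 rose and 6 fell. The higher call of SLC35A1 was lost without siBYSL 2, siNC 1 or siNC 3 (adjusted p from 0.0566 to 0.143, edgeR). The lower call of SLC35A3 was lost without siBYSL 2 or any 1 siNC library (adjusted p from 0.063 to 0.116, edgeR). It was also lost with library totals (0.157) or upper-quartile factors (0.0726). SLC35B4, which carries UDP-xylose and UDP-N-acetylglucosamine, went from 59.5 to 31.7 CPM (log2 fold change -0.91, SE 0.062), SLC35A2, the UDP-galactose transporter, fell by 0.34 and SLC35A4 by 0.28, while SLC35B3, a PAPS transporter, rose by 0.31. SLC35B4 held 3 guide heptamers in its 3′ UTR, and SLC35A2 and SLC35A3 held 1 each. The part of pairing in the values of these genes was not tested.

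**Figure D4:**
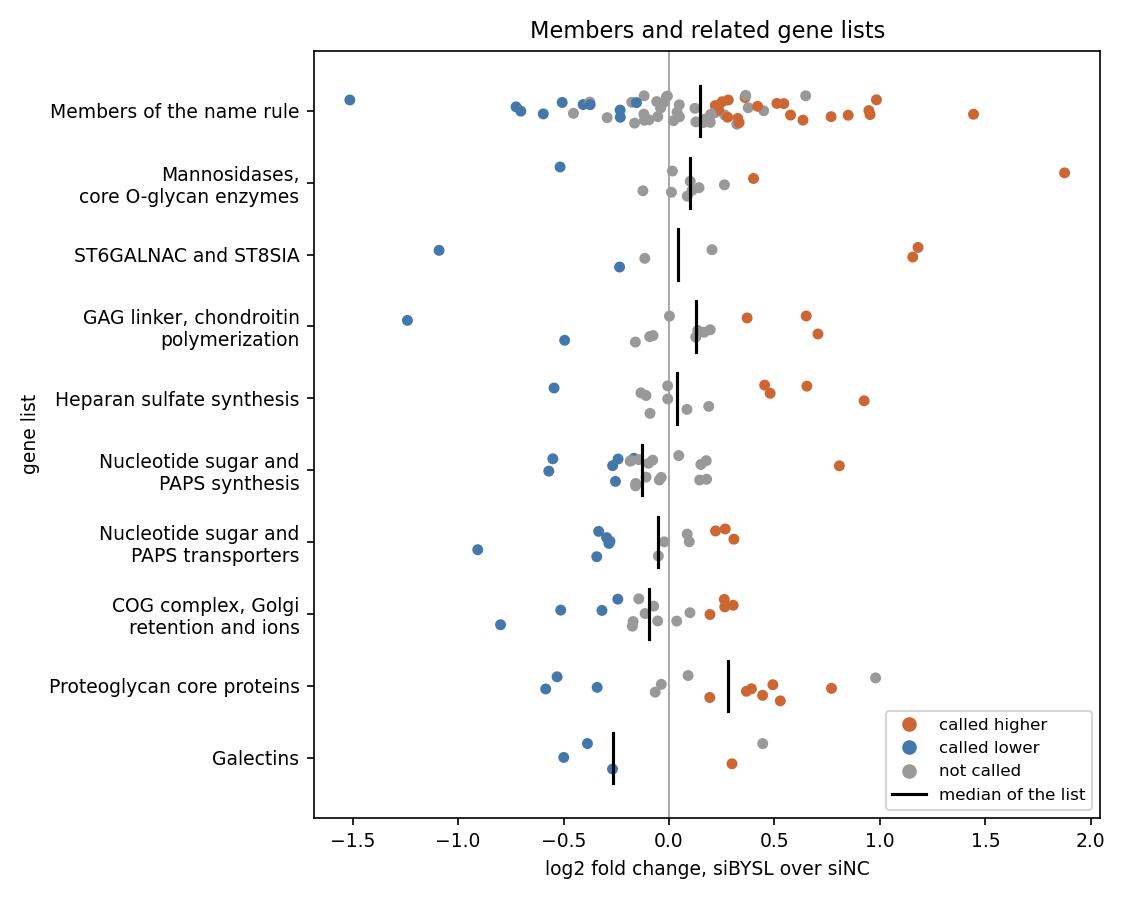
Log2 fold change (siBYSL over siNC, horizontal axis) of each tested gene in the name-rule set and in 9 related lists (vertical axis), coloured by call, with a black bar at each list's median. GAG stands for glycosaminoglycan, and the medians run from -0.27 for the 5 galectins to 0.28 for the 14 proteoglycan core proteins.

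In the list of Golgi retention, COG complex and ion homeostasis, 4 of 16 were called higher and 4 lower. The 4 higher calls, of COG4, COG6, COG7 and TRIP11, were all lost without siBYSL 1, siNC 1 or siNC 3, with 0 of the list higher in each case, and 1 was left without siBYSL 2 or siNC 2. Without siNC 3 the lower calls went from 4 to 2, and without siBYSL 3 there were 6. GOLPH3L, a relative of the adaptor GOLPH3 that retains glycosyltransferases in the Golgi, fell by 0.80 (SE 0.068) and held 3 guide heptamers. TMEM165, which supports Golgi manganese, fell by 0.24. GORAB was called at -0.32 and SLC10A7 at -0.51, and these calls were lost without siBYSL 2 (GORAB, adjusted p = 0.0518, edgeR) and without siNC 3 (0.0522 and 0.0573). With library totals as the only scaling, GORAB (0.0505) was not called either. Of 11 tested mannosidases and core O-glycan enzymes, 2 rose and 1 fell, with 5 higher without siBYSL 3 or with library totals as the only scaling. C1GALT1C1, the chaperone of the core 1 galactosyltransferase, fell by 0.52 (SE 0.054), MAN1B1 rose by 0.40, and MAN1C1 was called at 1.88 from a level under 1 CPM in both groups. Of the 6 tested ST6GALNAC and ST8SIA genes, 2 were higher and 2 lower. ST8SIA1, the GD3 synthase that uses the product of ST3GAL5, went from 1.17 to 2.65 CPM (1.18, SE 0.166), and ST6GALNAC5 from 1.01 to 0.477 CPM (-1.09, SE 0.255). ST6GALNAC4 (-0.23) and ST6GALNAC2 (1.16) were called with all libraries and lost their calls when 1 of several libraries was left out, with adjusted p up to 0.0618 and 0.0767 (edgeR), and ST6GALNAC4 also with library totals (0.0837). Of 5 tested galectins, which bind galactose-ended chains, LGALS1 fell by 0.50, LGALS3 by 0.39 and LGALS8 by 0.27. LGALS8 held 2 guide heptamers, and the part of pairing in its value was not tested. LGALS12 was called higher at 0.30, a call lost without siNC 2 (adjusted p = 0.0697, edgeR) or siNC 3 (0.0622).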

How the data were processed

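Poly(A) RNA from 6 MDA-MB-231 cultures was sequenced as strand-specific 150-nt paired-end libraries, per the labels' protocols. The submitters' processing notes name HISAT2, DESeq2 and the build GRCh38.p13, with no version of the tools; no source used here gives the counting program, its strand setting or the annotation release. The deposited table holds whole-number counts per gene, not normalized, and each of its 6 count columns was matched to a sample by its label. Coordinates, exon lengths and 3′ UTRs were taken from GENCODE 29 (GRCh38), in which all 71 members were found by Ensembl identifier.

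Genes passing filterByExpr were fitted with edgeR 4.0.16 (R 4.3.3; TMM factors, robust quasi-likelihood F test, siBYSL minus siNC, no covariate), with Benjamini-Hochberg adjustment over 16412 genes and a threshold of 0.05. The standard error is the absolute log2 fold change over the square root of F. The test was tested on simulated counts with 50 changed genes at each fold. It called 34% of those changed 1.25-fold, 62% at 1.5-fold and 88% at 2-fold. Of 16212 unchanged genes, 7 were called. A gene that was not called can therefore still have changed by such amounts. Members called at 1 CPM or more are named, those with an absolute log2 fold change of 0.5 or more with each library's value, together with the most abundant member by CPM of each role group and up to 4 called genes with the smallest adjusted p of each related list. One gene that this rule names is not reported here. The members and lists were chosen with earlier results of these data known. Alternatives were 3 other scalings, no filter, a filter of 1 CPM in 3 libraries, the Wald test of DESeq2 1.42.0, the replicate number as a block, and each library left out. A second gene length was added after seeing the data.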

Additional observations from a re-analysis of the deposited data

How the results depend on the processing

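No member's and no called related gene's log2 fold change changed sign while called under the 13 alternatives run. Of the tested members (56 with the stricter filter, 71 without a filter, 62 otherwise), 16 to 24 were higher and 7 to 11 lower when 1 library was left out, and 19 to 22 higher and 7 to 10 lower under the other settings. The shares of all genes called in these fits are not given here, so nothing is read from these counts about the members. Counts of role groups that moved were small. Without a filter, 1 O-GalNAc gene (GALNT3) was lower, 0 beta-1,3-N-acetylglucosaminyltransferases were higher and 0 sialyltransferases were lower. With library totals, 0 beta-1,4-galactosyltransferases and 0 sialyltransferases were lower, 2 other sulfotransferases (CHST6 and CHST2) and 1 other fucosyltransferase (FUT4) were higher. With upper-quartile factors, 2 other sulfotransferases were higher and 0 sialyltransferases lower. With the stricter filter, which removed CHST4 and CHST6, 0 other sulfotransferases were higher and 0 lower, and 0 sialyltransferases lower. With the DESeq2 Wald test, 0 beta-1,3-N-acetylglucosaminyltransferases were higher and 0 sialyltransferases lower. With the replicate block, 19 members were higher and 9 lower, with 0 beta-1,3-N-acetylglucosaminyltransferases higher and 0 sialyltransferases lower, the calls of B3GNT8 and ST3GAL4 being lost. Same-numbered libraries correlated at -0.129, 0.0596 and 0.0106 in their deviations from the group means, and differently numbered ones at -0.168 to 0.151. No effect shared by replicate number was seen, though so few libraries cannot decide whether the cultures were paired. With 1 library left out, lower counts ran from 0 to 1 for O-GalNAc, beta-1,4-galactosyl- and sialyltransferases and from 1 to 2 for beta-1,3-galactosyltransferases, and higher counts from 0 to 1 for beta-1,3-N-acetylglucosaminyl-, beta-1,3-galactosyl- and other sulfotransferases. Apart from the removed genes, the cause of these moves was not tested. Depth limits CHST4, CHST6 and the 9 members under the filter, where a few reads decide a value.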
